A study of Mus musculus with 9 samples.

Results

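The cytosolic route from citrate and acetate to palmitate was examined through 9 genes in mouse liver, *Acly*, *Acss2*, *Acaca*, *Acacb*, *Fasn*, *Mlycd*, *Thrsp*, *Mid1ip1* and *Aacs*, chosen by name from the 19329 gene symbols measured. C57BL/6J mice, an inbred strain, were either kept on standard chow (5 mice, named chow 1 to chow 5) or moved at 8 weeks of age to a high-sucrose diet (HSD; 4 mice, named HSD 1 to HSD 4) for 3 weeks, and all livers were taken at 11 weeks. All mice carried the same strain background and shared a 12-h light cycle, and the labels give no genetic change or drug. The labels give neither the sex of the mice nor the time of day or the feeding state at which livers were taken. Each liver gave 1 poly-A RNA library of whole tissue, so fewer cells of a type and less RNA per cell cannot be told apart.

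Fatty acid synthesis in the cytosol starts from acetyl-CoA, which ATP-citrate lyase (*Acly*) releases from citrate and which acetyl-CoA synthetase (*Acss2*) makes from acetate. Acetyl-CoA carboxylase adds a carboxyl group to form malonyl-CoA. The carboxylase encoded by *Acaca* is cytosolic and feeds synthesis, whereas the *Acacb* enzyme sits at the mitochondrial surface, where malonyl-CoA restrains fatty acid import for oxidation. Fatty acid synthase (*Fasn*) builds palmitate from malonyl-CoA and NADPH, and malonyl-CoA decarboxylase (*Mlycd*) runs the carboxylase step backwards. *Thrsp* (Spot 14) and its relative *Mid1ip1* encode small partner proteins tied to carboxylase activity, and *Aacs* activates acetoacetate in the cytosol for lipid synthesis. In liver, sucrose and insulin are textbook inducers of this route, through the transcription factors SREBP-1c and ChREBP.

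Values are given as CPM, the part of a library's counts that falls on a gene after TMM scaling (trimmed mean of M values), or as TPM, which also corrects for transcript length. The call of a gene as higher or lower rested on edgeR's quasi-likelihood test with Benjamini-Hochberg adjustment over 12091 genes and a threshold of 0.05. Library totals ran from 12769668 to 25913869 estimated counts on chow and from 14040723 to 24825322 on HSD, and all 9 genes passed the filter on low counts. Summed hepatocyte markers reached 67429 to 130849 CPM on chow and 97490 to 131731 CPM on HSD, and 0 of 8 were called. The adipocyte list, which matters because fat also uses this route, summed to 6.69 to 9.46 CPM on chow and 6.55 to 10.1 CPM on HSD. Within it, *Lep* and *Retn* were at 0 in every liver and *Adipoq* in 8 of 9. Of the other marker lists, Kupffer and macrophage genes summed to 145 to 328 CPM on chow and 93.3 to 189 CPM on HSD. All 6 of them had negative log2 fold changes (median -0.54), 3 at an unadjusted p under 0.05, and 0 were called by edgeR. Among red blood cell genes, 1 of 5 tested was called lower, *Alas2* of heme synthesis (-1.14, adjusted p = 0.00016 from edgeR), and the globins overlapped between diets. Stellate, sinusoidal endothelial and cholangiocyte lists had 0 genes called, with median log2 fold changes of 0.32, 0.05 and 0.37. At an unadjusted p under 0.05 from edgeR, the stellate *Lrat*, *Reln* and *Dcn* were higher (0.60, 0.40 and 0.28). So were the cholangiocyte *Krt19* and *Epcam* (0.74 and 1.08), while the endothelial *Stab2* was lower (-0.20). Over all genes, 23.7% passed that level. The lymphocyte and neutrophil list had none that could be tested. The part of these cells in the results was not tested. A pair of chow livers stood apart from the others. The clock gene *Arntl* reached 4.40 CPM in chow 1 and 9.24 CPM in chow 3, where the rest of the chow group had at most 1.63 CPM and HSD livers had 4.20 to 9.15 CPM. Chow 1 also had 10112 CPM of the acute phase gene *Saa2*. For this reason the 9 genes and their ratios were also compared in 7 livers, without this pair, a choice made after seeing the data. In those 7 livers *Arntl* did not overlap between diets, so diet and clock state cannot be told apart there. Values without chow 1 and chow 3 carry this limit throughout. A fit with a covariate for clock phase is given below, but it cannot fully separate clock phase from diet. The part of inflammation in the results was not tested.

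Of the 9 genes, 3 were called higher on HSD, 0 were called lower and 6 did not pass. Over all genes tested, 3.44% were called higher and 3.23% lower, 6.67% in all. At an unadjusted p under 0.05, 4 of the 9 were higher, these 3 and *Acly*, and 0 were lower, where 23.7% of all genes passed in either direction. Those called after adjustment were *Acaca*, *Fasn* and *Acacb*, the carboxylases and the synthase, and for all 3 every HSD liver lay above every chow liver, as it did for 5.84% of all genes (11.3% were fully apart in either direction). The median log2 fold change of the 9 was 0.59, beside -0.00 over all genes tested.

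*Fasn* and *Acly* lie on mouse chromosome 11, and the 250 bases before their RefSeq start sites (GRCm38.p6) are shown. *Fasn* was called, and *Acly*, with a fold change of similar order, narrowly was not (adjusted p = 0.0688 from edgeR). *Acly* did pass with DESeq2 (adjusted p = 0.0371). Any part of these sequences in the diet differences was not tested. Capitals mark the CCAAT box (CCAAT or ATTGG) in the *Fasn* sequence and the GC box (GGGCGG or CCGCCC) in the *Acly* sequence, on either strand.
Fasn, chr11:120824548-120824797, minus strand: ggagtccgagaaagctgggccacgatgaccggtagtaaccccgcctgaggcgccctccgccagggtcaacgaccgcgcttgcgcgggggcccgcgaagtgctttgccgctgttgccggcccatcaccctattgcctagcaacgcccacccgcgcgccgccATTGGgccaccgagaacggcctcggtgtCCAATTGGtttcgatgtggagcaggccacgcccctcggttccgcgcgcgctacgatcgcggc
Acly, chr11:100528001-100528250, minus strand: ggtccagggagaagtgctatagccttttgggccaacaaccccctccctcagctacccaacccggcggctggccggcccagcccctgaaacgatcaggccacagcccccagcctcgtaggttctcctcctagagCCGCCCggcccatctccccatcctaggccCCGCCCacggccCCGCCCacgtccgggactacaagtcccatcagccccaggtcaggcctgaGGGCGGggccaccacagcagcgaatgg
The *Fasn* window held CCAAT boxes beginning at bases -90, -62 and -59, the last 2 overlapping on opposite strands. The *Acly* window held GC boxes at -117, -88, -76 and -27. Guanine and cytosine made up 69.2% of the *Fasn* bases and 68.8% of the *Acly* bases.

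The same search covered 300 bases around the RefSeq start (250 before and 50 after) for all 9 genes and for 32851 windows in all, on both strands. A CCAAT box was found in 6 of the 9 (*Acly*, *Acss2*, *Acacb*, *Fasn*, *Mlycd*, *Thrsp*) and in 37.4% of all windows. A GC box was found in 3 (*Acly*, *Acss2*, *Mid1ip1*) and in 35.7%. The E-box CACGTG was in 0 of the 9 windows and 7.15% of all, and the sterol-element core TCACNCCAC was in 0 and 1.24%. These are matches of letters in a short window, and sites further away were not searched. The windows of *Acaca*, *Acacb* and *Mid1ip1* lie inside the spans that GENCODE gives these genes, so other starts of theirs were not covered. For *Acaca* the bases before the start are chr11:84195188-84195437, 39.2% guanine and cytosine, whereas the gene begins at base 84129672. Whether this window, counted among the 9, acts as a promoter in liver was not tested.

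*Acaca* differed most between diets. The gene spans chr11:84129672-84401651 on the plus strand (GENCODE, GRCm38) with 59 exonic blocks. In chow 1 to chow 5 it stood at 115, 180, 109, 223 and 206 CPM, and in HSD 1 to HSD 4 at 555, 390.5, 845 and 762 CPM. The lowest HSD liver was thus above the highest chow liver. Chow averaged 167 ± 52.0 CPM (SD, n = 5) and HSD 638 ± 205 CPM (SD, n = 4), which is 3.83-fold. The log2 fold change was 1.94, with a standard error of 0.26, a 95% interval from 1.37 to 2.499 and an adjusted p of 0.00199 by edgeR. Without chow 1 and chow 3 the log2 fold change was 1.64 (adjusted p = 0.0014 from edgeR). A limit of the value is that 31.7% of the 31-base sequences of *Acaca* also occur in *Gm5182*, a gene that is not in the tables, so reads of the one could count for the other.

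*Fasn*, at chr11:120805846-120824547 on the minus strand, was the most abundant of the 9 in CPM. It was at 456, 905, 369.5, 848 and 685 CPM in chow 1 to 5 and at 1584, 1288, 2816 and 2519.8 CPM in HSD 1 to 4. Again no HSD liver overlapped the chow range. From 653 ± 235 CPM (SD, n = 5) to 2052 ± 731 CPM (SD, n = 4), the log2 fold change was 1.65 (standard error 0.29, 95% interval 1.02 to 2.29), or 3.14-fold, with an adjusted p of 0.0074 from edgeR. Leaving out chow 1 and chow 3 gave 1.33 (adjusted p = 0.0067 from edgeR). No 31-base sequence of *Fasn* occurs in another gene.

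The mitochondrial-surface carboxylase *Acacb* (chr5:114146535-114250761, plus strand) differed less. Its chow values were 161, 277, 139.5, 320.0 and 285 CPM and its HSD values 532, 348, 585 and 629.9 CPM. HSD 2, at 348 CPM, was close to chow 4, the highest chow liver. The log2 fold change was 1.15 (standard error 0.25, 95% interval 0.60 to 1.69), which is 2.21-fold, and the adjusted p was 0.0197 from edgeR. It was 0.82 (adjusted p = 0.0119 from edgeR) without chow 1 and chow 3. The call was lost when HSD 1, HSD 3 or HSD 4 was left out (adjusted p = 0.0618, 0.0563 and 0.0666 from edgeR).

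*Acly*, the citrate-cleaving enzyme at chr11:100476353-100528000 on the minus strand, had the largest standard error among the 4 genes whose levels differed by more than 2-fold. Chow livers were at 195, 583, 241, 707 and 601 CPM and HSD livers at 1062, 549, 1500.3 and 1392 CPM. HSD 2 fell within the range of chow, while the other 3 HSD livers lay above all 5 chow livers. The log2 fold change of 1.27 (standard error 0.38, 95% interval 0.44 to 2.11) had an adjusted p of 0.0688 from edgeR and so did not pass. It passed without HSD 2, with a log2 fold change of 1.502 (adjusted p = 0.0451 from edgeR), and with DESeq2 (adjusted p = 0.0371). Without chow 1 and chow 3 it was 0.83 (adjusted p = 0.075 from edgeR).

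**Figure D1:**
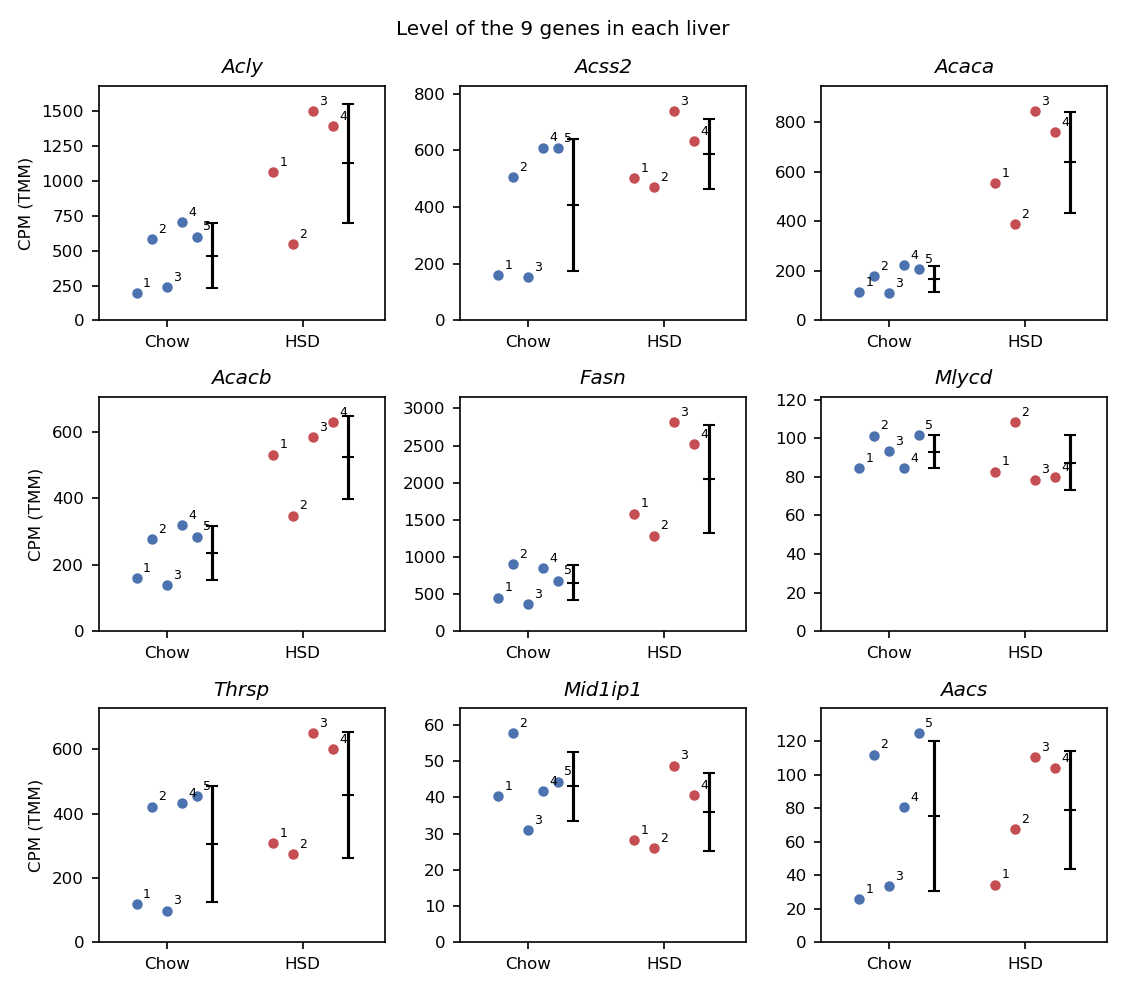
CPM after TMM scaling of each of the 9 genes (linear vertical axes from 0, one panel a gene) in 5 chow livers (blue) and 4 HSD livers (red), numbered by replicate, with the mean and SD in black. For *Acaca*, *Acacb* and *Fasn* all HSD points are above all chow points, and chow 1 and chow 3 are the 2 lowest chow points for 8 of the 9 genes, all but *Mlycd*.

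The other source of acetyl-CoA, *Acss2* (chr2:155517948-155585724, plus strand), overlapped between diets. It was at 159, 505, 152, 609 and 608 CPM on chow and at 502, 471, 738 and 631 CPM on HSD. Chow 2, chow 4 and chow 5 were above HSD 1 and HSD 2. The log2 fold change was 0.53 (standard error 0.39, adjusted p = 0.455 from edgeR), with a 95% interval from -0.33 to 1.38 that leaves room for a rise above 2-fold. Exons of *Acss2os*, *Ggt7* and *Gss* overlap those of *Acss2* on the other strand. The use of strand in counting was not given in the sources used here, so reads in those stretches cannot be assigned. Of the 31-base sequences of *Acss2*, 7.57% occur in other genes on either strand, 2.99% in *Gss*.

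*Thrsp* (chr7:97412938-97417730, minus strand) behaved much like *Acss2* across livers. Its values were 117.8, 422, 98.8, 432 and 455 CPM on chow and 309, 273, 649.9 and 599.7 CPM on HSD. HSD 1 and HSD 2 were below chow 2, 4 and 5, and HSD 3 and HSD 4 were above all chow livers. Between the diets the log2 fold change was 0.59 (95% interval -0.40 to 1.57, adjusted p = 0.472 from edgeR).

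For both genes the estimate turned on how chow 1 and chow 3 were treated. Without these livers the log2 fold change was 0.02 for *Acss2* and 0.06 for *Thrsp*. With the difference of *Arntl* and *Dbp* as a covariate for clock phase, it was 1.27 for *Acss2* (adjusted p = 0.0114 from edgeR) and 1.42 for *Thrsp* (adjusted p = 0.0168 from edgeR). *Acly* was then 1.80 (adjusted p = 0.0117 from edgeR), which brings the genes called higher to 6 of 9 in that fit. Over all genes, the same fit called 448 of 12091 higher. The covariate was -6.41 to -6.04 in chow 2, 4 and 5 and -4.48 to -1.93 in the HSD livers. Chow 1 and chow 3 were at -3.27 and -1.56. Covariate and diet thus overlap, and their parts in these values cannot be fully told apart.

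*Mid1ip1*, *Mlycd* and *Aacs* were called in none of the fits run. *Mid1ip1* (chrX:10715013-10719690, plus strand) was at 40.4, 57.7, 30.99, 41.6 and 44.3 CPM on chow and 28.2, 25.9, 48.7 and 40.6 CPM on HSD. The diets overlapped, and its log2 fold change was -0.26 (95% interval -0.70 to 0.17, adjusted p = 0.468 from edgeR), and -0.43 without chow 1 and chow 3. Of its 31-base sequences, 22.7% lie in the overlapping antisense gene *Gm14493*, which is not in the tables.

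*Mlycd* (chr8:119394878-119411102, plus strand) varied least, with a coefficient of variation of 9.13% on chow and 16.1% on HSD. It was at 84.5, 101, 93.2, 84.5 and 102 CPM on chow and at 82.7, 108, 78.6 and 79.7 CPM on HSD. HSD 2 was its highest liver of all, in contrast to most of the other genes, for which HSD 2 was the lowest HSD liver. Its log2 fold change was -0.09, and its 95% interval of -0.34 to 0.16 excludes a change of 2-fold in either direction. It was -0.14 without chow 1 and chow 3, and on TPM the sign turned (0.07).

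*Aacs* (chr5:125475814-125517410, plus strand) ranged from 25.7 to 124.8 CPM on chow and from 34.4 to 110.3 CPM on HSD. Its lowest livers were chow 1, chow 3 and HSD 1. The log2 fold change was 0.07 with a 95% interval of -0.91 to 1.05, an interval that still holds a 2-fold rise, and the sign was negative without chow 1 and chow 3 (-0.43).

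**Figure D2:**
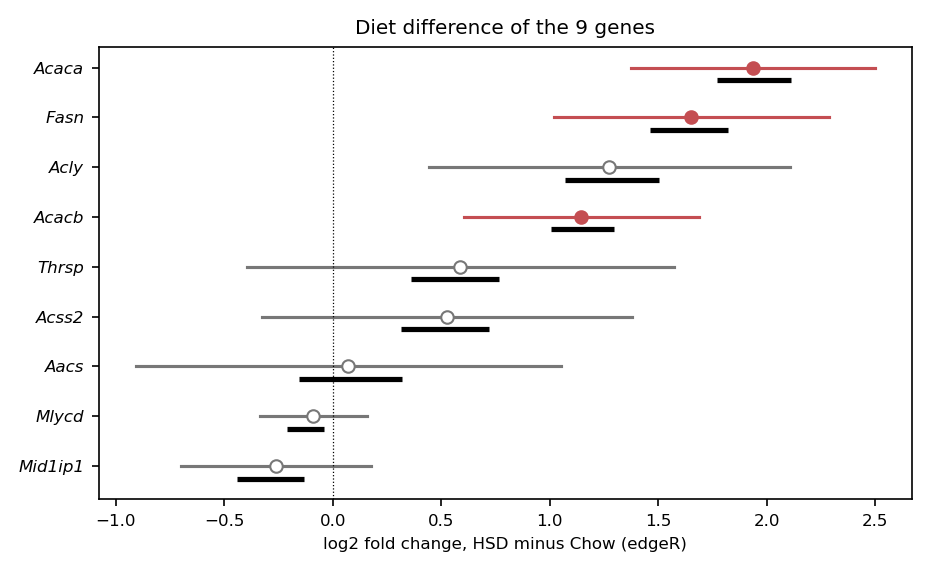
Log2 fold change of each gene between diets (horizontal axis, HSD minus chow, edgeR) with its 95% interval, filled red where the adjusted p was under 0.05, and below each the range when single livers were left out in turn (black bar). *Acaca* and *Fasn* lie furthest to the right at 1.94 and 1.65, and the interval of *Acly* excludes 0 although its adjusted p is 0.0688.

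Among the HSD livers the same order recurred. HSD 3 or HSD 4 was highest and HSD 2 lowest for *Acly*, *Acss2*, *Acaca*, *Acacb*, *Fasn*, *Thrsp* and *Mid1ip1*. The library labels fall into 2 series of numbers, with chow 5, HSD 3 and HSD 4 in the second, and what the series stand for is not given. In the first series *Fasn* averaged 645 CPM in 4 chow livers and 1436 CPM in 2 HSD livers, and in the second 685 CPM in 1 chow liver and 2668 CPM in 2 HSD livers. With the series as a covariate the log2 fold changes were 1.71, 1.42 and 1.01 for *Acaca*, *Fasn* and *Acacb*, and all 3 passed (edgeR's adjusted p = 0.0035, 0.0219 and 0.0431). Within the first series alone they were 1.59, 1.15 and 0.97, and none of the 3 passed (adjusted p = 0.0705, 0.200 and 0.248 from edgeR).

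Per transcript length, the order of the genes also differed between diets. On chow, *Thrsp* had the highest mean at 346 ± 216 TPM (SD, n = 5), followed by *Fasn* at 196 ± 70.1 TPM, *Acss2* at 180 ± 111 TPM and *Acly* at 137 ± 74.6 TPM, and neighbours among these 4 differed by less than their SD. *Acly* was above *Mlycd*, at 56.2 ± 7.16 TPM, in all 5 chow livers. *Aacs*, *Acacb*, *Mid1ip1* and *Acaca* followed at 38.9, 36.3, 34.6 and 27.9 TPM, again with neighbours closer than their SD. *Acaca* was thus last of the 9 on chow.

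On HSD, *Thrsp* at 568 ± 244 TPM (SD, n = 4) and *Fasn* at 549 ± 166 TPM led and could not be ordered. *Acly* followed at 352 ± 137 TPM, below *Fasn* in all 4 livers, and *Acss2* at 284 ± 63.2 TPM did not differ from *Acly* beyond the spread. *Acaca* ranked 5 of 9 at 109 ± 36.9 TPM, above *Acacb* at 84.7 ± 19.5 TPM in all 4 livers, although the means differed by less than the SD. *Mlycd* stood at 59.0 TPM, *Aacs* at 34.03 TPM and *Mid1ip1* at 30.3 TPM.

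The balance between paired genes was compared within each liver, as the ratio of TPM of the 2 genes, for 5 pairs. An exact two-sided permutation test over livers was used, whose smallest possible p is 0.0159, with adjustment over the 5 pairs. For 3 pairs every HSD liver had a higher ratio than every chow liver. The pairs were chosen with earlier results known, and the share of other gene pairs that separate in this way was not computed. Of single genes, 11.3% were fully apart in either direction, among them *Acaca*, which is in the pairs with *Acacb* and *Mlycd*. Leaving out HSD 1, HSD 3 or HSD 4 kept the 3 pairs fully apart but raised the adjusted p of each to 0.0595 in the exact permutation test, since 8 livers allow fewer splits.

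*Acaca* was below *Acacb* in every chow liver and above it in every HSD liver. The ratio of *Acaca* to *Acacb* was 0.765, 0.685, 0.845, 0.763 and 0.827 in chow 1 to 5 and 1.17, 1.09, 1.52 and 1.29 in HSD 1 to 4. The mean difference was 0.70 on the log2 scale (exact permutation p = 0.0159, adjusted 0.0265). It was 0.73 without chow 1 and chow 3. The shared sequences of *Acaca* and *Gm5182* bear on this ratio too, and their part in it was not tested.

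The ratio of *Acaca* to *Mlycd*, the forward and reverse steps at malonyl-CoA, went from 0.313 to 0.721 on chow to 0.869 to 2.70 on HSD. The log2 difference was 1.92 (exact permutation p = 0.0159, adjusted 0.0265), and 1.62 without chow 1 and chow 3. Because *Mlycd* hardly differed (log2 fold change -0.09), this ratio largely repeats the difference of *Acaca*, which was fully apart on its own. It is not a separate result.

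For the Spot 14 pair, the ratio of *Thrsp* to *Mid1ip1* was 4.43, 12.2, 4.52, 12.6 and 11.7 on chow and 15.5, 16.1, 20.7 and 20.1 on HSD. Neither gene was called on its own, and their ratio separated the diets in all 9 livers, with a log2 difference of 1.14 (exact permutation p = 0.0159, adjusted 0.0265). Chow 1 and chow 3 lay far below the other 3 chow livers, and without them the difference was 0.56.

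The ratio of *Acly* to *Acss2* averaged 0.801 on chow and 1.17 on HSD (exact permutation p = 0.0794, adjusted 0.0794), with HSD 2 at 0.748 and the other HSD livers at 1.31 to 1.41. *Fasn* to *Acaca* fell from 7.08 to 5.09 as geometric means, a difference that did not pass (exact permutation p = 0.0635, adjusted 0.0794). Without chow 1 and chow 3 the log2 differences were 0.68 and -0.45. Computed from CPM in all 9 livers, they were 0.59 and -0.27 and both passed (exact permutation, adjusted p = 0.0476 and 0.0397).

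**Figure D3:**
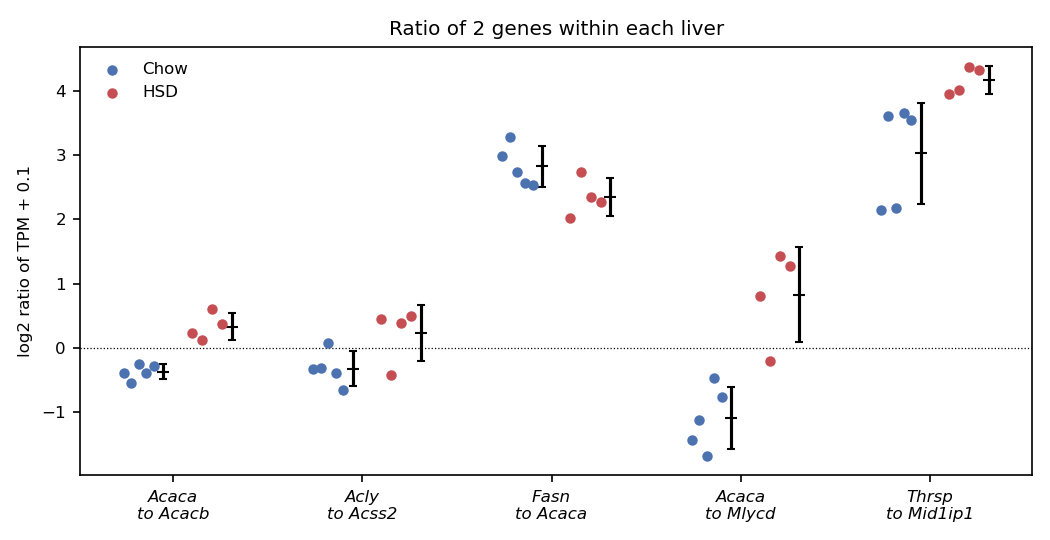
Log2 of the ratio of 2 genes within each liver (vertical axis, TPM with 0.1 added) for 5 pairs, chow livers in blue and HSD livers in red, with mean and SD. The *Acaca* to *Acacb* points lie below 0 (a ratio of 1) in all 5 chow livers and above it in all 4 HSD livers, and the *Acaca* to *Mlycd* and *Thrsp* to *Mid1ip1* points are also fully apart.

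Count and TPM of a gene should keep a nearly fixed proportion between libraries unless the mix of its transcripts, and so its effective length, differs. Their quotient, relative to the typical gene of the library, was therefore computed for each liver, a step added after seeing the data. It was flat for *Mlycd*, *Thrsp* and *Acss2*, with a range over the 9 livers of 0.01, 0.02 and 0.03 on the log2 scale. For *Aacs* it ranged over 0.96, or 1.94-fold. Chow 1, chow 3 and chow 4 were at -0.36, -0.67 and -0.59, and the other 6 livers at 0.22 to 0.29. Its SD was reached by 1.4% of the 7291 genes compared.

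For *Fasn* the quotient ranged over 0.57, or 1.48-fold, and its SD was reached by 11.4% of genes. HSD 1, HSD 3 and HSD 4 were at 0.24 to 0.29, above the chow livers at -0.28 to 0.09, and HSD 2 was at -0.11. The mean was -0.14 on chow and 0.18 on HSD. Relative to the typical gene of the library, the diet difference of *Fasn* is thus larger in counts than in TPM by the gap between these means. Without that centring, the log2 fold change of *Fasn* was 1.65 on counts (edgeR) and 1.51 on log2(TPM + 0.1) (limma). In that TPM fit the median over all genes was 0.155. *Mid1ip1* ranged over 0.55, with no separation of the diets. Transcript-level values were not analysed here.

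**Figure D4:**
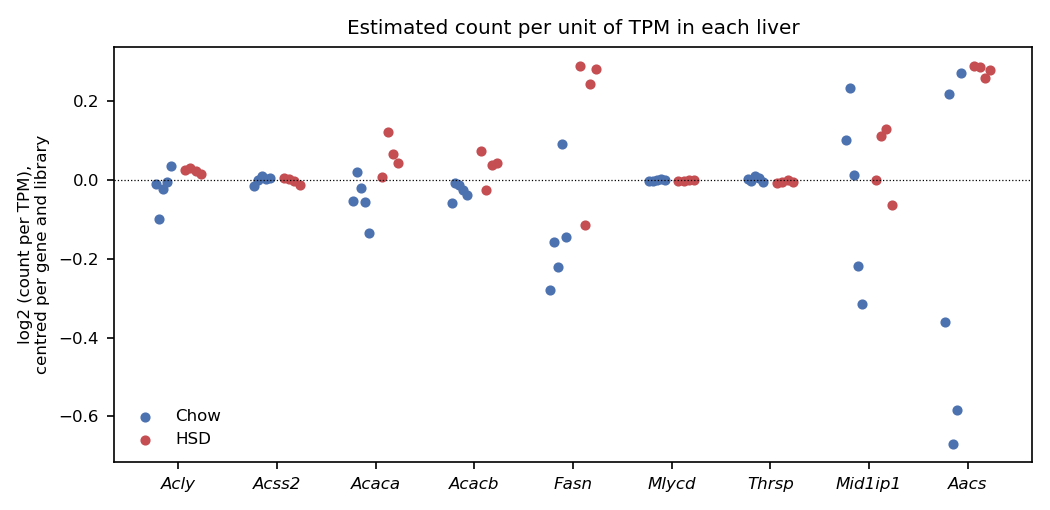
Log2 of the estimated count per unit of TPM (vertical axis, centred for each gene and library) of the 9 genes in chow (blue) and HSD (red) livers. Points of *Mlycd*, *Thrsp* and *Acss2* lie on the line at 0, *Fasn* spreads from -0.28 to 0.29 and *Aacs* has 3 chow livers well below the other 6 livers.

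The steps around the 9 genes were followed through 10 lists of 89 genes, of which 85 could be tested. In all, 18 were higher on HSD, 4 were lower and 63 did not pass, with a median log2 fold change of 0.04. Beside this, 3.44% of all genes were higher and 3.23% lower, so the 4 of 85 lower are near the share of all genes. The lists too were chosen with earlier results of these data known, so their count of higher genes is only a description. The lists of citrate and NADPH supply and of desaturases and elongases held most of the genes called higher.

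Of 12 genes of citrate and NADPH supply, 4 were higher and 8 did not pass. *G6pdx*, the entry to the pentose phosphate pathway, was at 4.62 to 9.81 CPM on chow and 51.8 to 112.9 CPM on HSD, and its log2 fold change of 3.58 was larger than that of any of the 9 genes (adjusted p = 3.18e-05, edgeR). *Me1*, the cytosolic malic enzyme, had 1.83, *Pgd* of the same pentose pathway 1.13, and citrate synthase *Cs* 0.77. The citrate carrier *Slc25a1*, which delivers the substrate of *Acly*, was at 0.20 (adjusted p = 0.263 from edgeR).

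Of 10 desaturases and elongases tested, not all of which act on palmitate, 7 were higher and 3 did not pass. *Elovl6*, which extends palmitate, went from 142 ± 66.8 CPM (SD, n = 5) to 531 ± 150.04 CPM (SD, n = 4). *Elovl2* and *Elovl5*, elongases of polyunsaturated fatty acids, had log2 fold changes of 1.24 and 1.52, and the desaturase *Scd2* 1.24. The most abundant gene of the list, the stearoyl-CoA desaturase *Scd1*, made up most of its summed counts, with 4227 to 18499 CPM on chow and 31066 to 44494 CPM on HSD.

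Other enzymes of acetyl-CoA and acetoacetate gave 3 higher of 11 tested, with 8 not passing. These were *Dlat*, a subunit of pyruvate dehydrogenase (1.03), the cytosolic thiolase *Acat2* (0.77) and carnitine acetyltransferase *Crat* (1.20), the last with overlap between the diets. The biotin-dependent carboxylases and biotin handling, the class to which *Acaca* and *Acacb* belong, had 0 of 7 higher and 1 lower, *Mccc2* of leucine breakdown (-0.52). Holocarboxylase synthetase *Hlcs*, which attaches biotin to the carboxylases, was at -0.49 (adjusted p = 0.0563 from edgeR).

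The AMP-activated kinase, which phosphorylates and restrains both carboxylases, had 0 of 9 genes higher and 1 lower, its upstream kinase *Stk11* (-0.29, adjusted p = 0.0448 from edgeR). *Cab39* of the same list went the other way and narrowly missed the threshold (0.31, adjusted p = 0.0504 from edgeR). The median log2 fold change of the list was 0.04. RNA levels do not report phosphorylation. Of 4 carnitine palmitoyltransferase and carrier genes tested, the targets of malonyl-CoA and their partners, 0 were called by edgeR, and 0 had an unadjusted p under 0.05 (by DESeq2 and by voom 1 had, *Cpt2*, and 0 were called). *Cpt2* and *Slc25a20* were at -0.30 and -0.15, and *Cpt1a*, the entry step, at 0.08. Mitochondrial fatty acid synthesis, a separate route with its own malonyl-CoA synthetase, had 0 of 8 higher and 1 lower, that synthetase, *Acsf3* (-0.42).

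Among 12 lipogenic transcription factors and SREBP regulators, 1 was higher and 11 did not pass. *Srebf1* was at 153, 182, 145, 243 and 234 CPM on chow and 185, 180.2, 252 and 271 CPM on HSD. The diets overlapped, and the log2 fold change was 0.22 (95% interval -0.18 to 0.61, adjusted p = 0.509 from edgeR). *Mlxipl*, which encodes ChREBP, was at 0.11 (adjusted p = 0.578 from edgeR). *Insig2*, which holds SREBP in the endoplasmic reticulum, was the one called higher (0.86, adjusted p = 0.0143 from edgeR). The pseudokinase *Trib1*, of the group that directs carboxylase turnover with the ligase *Cop1*, was lower (-0.38, adjusted p = 0.039 from edgeR), and the other 3 of that list did not pass.

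Of 8 genes of the insulin and fasting response, 3 were higher and 5 did not pass. Among those higher were the hormone *Fgf21* (2.99) and *Pdk4* (1.82), an inhibitor of pyruvate dehydrogenase that fasting raises. The gluconeogenic *Pck1* was at -0.01 and did not pass.

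**Figure D5:**
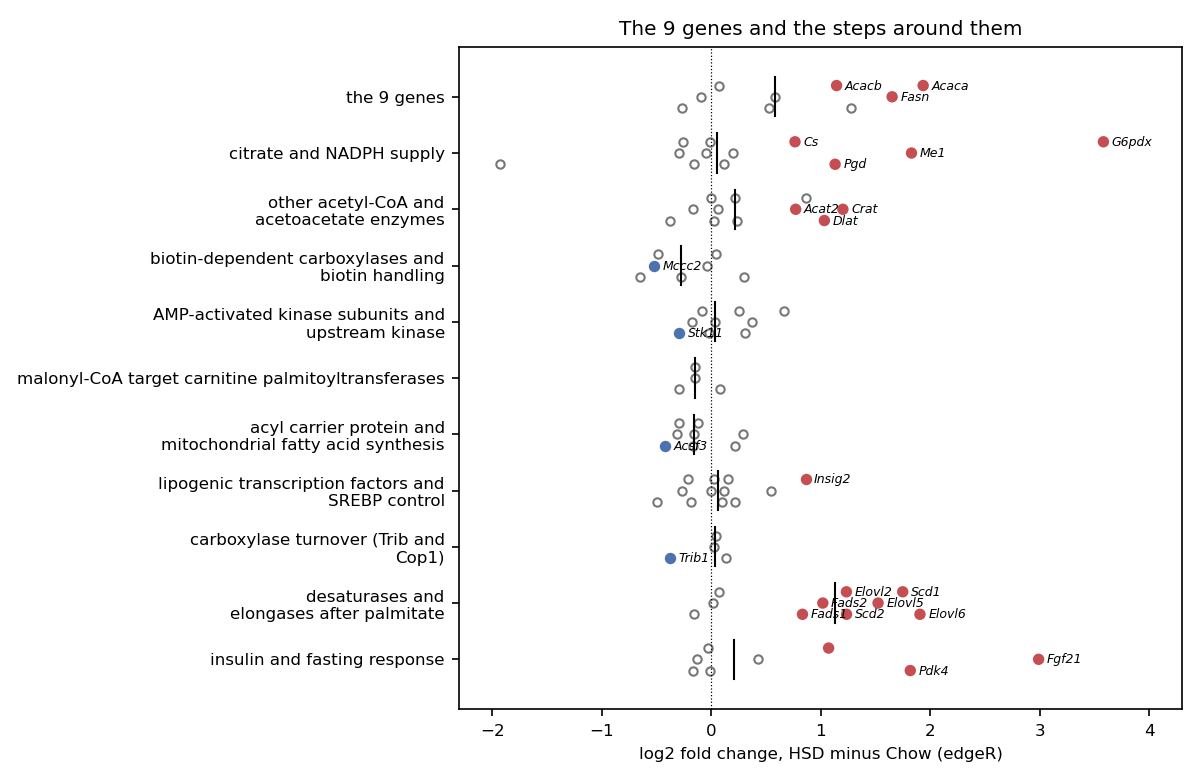
Log2 fold change between diets (horizontal axis, HSD minus chow, edgeR) of the 9 genes and of the tested genes of 10 lists around them (rows), filled where the adjusted p was under 0.05 (red higher, blue lower) and open otherwise, with the list median as a vertical bar. Filled red points gather in the rows of NADPH supply and of desaturases and elongases, and *G6pdx* lies furthest right at 3.58.

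Across the 9 livers, the genes nearest in pattern were found by the root mean square difference of centred log2 CPM over 10359 candidates. This is a description over 9 livers that share libraries and diets. Among the 9 themselves, *Acaca* and *Fasn* were closest to each other (0.217), as were *Acss2* and *Thrsp* (0.225), and *Acly* was closest to *Acacb* (0.307). Outside them, the nearest to *Acaca* was *Elovl6* (0.272) and then *Morc4* (0.287), and the nearest to *Acly* was *Pklr* (0.309), the liver pyruvate kinase, and then the water channel *Aqp8* (0.332). *Acacb* and *Fasn* shared *Mr1* as the nearest gene (0.169 and 0.298), followed by *Pik3c2g* (0.186) and *Rdh16* (0.341). For *Acss2* these were *Aqp8* (0.348) and *Tgfb1i1* (0.350), and for *Thrsp* the phosphatidate phosphatase *Lpin1* (0.392) and *Tgfb1i1* (0.432). *Mlycd* was nearest to *Tmem126b* and *Sf1*, *Mid1ip1* to *Atic* and *Pex10*, and *Aacs* to *Rarb* and *Gstm3*.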

How the data were processed

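Poly-A RNA libraries of 9 livers were sequenced in pairs and quantified by the authors with kallisto (GRCm38 per the submitters' processing notes, with the version and annotation release not given in the sources used here). Per gene symbol, the deposited tables hold estimated counts, not scaled, and TPM values scaled by the authors per library, which sum to 923061 to 945110 over the symbols listed. Of the estimated counts above 0, 34.1% were whole (tolerance 1e-06), and even numbers made up 99.1% of the whole ones, for a reason not stated.

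Estimated counts were rounded. The quasi-likelihood test of edgeR 4.0.16 (R 4.3.3) was fitted with diet alone, leaving 7 residual degrees of freedom, after TMM scaling and filterByExpr at its minimum count of 10 and total of 15. The standard error is the log2 fold change over the root of the F statistic, and the prior count for log2 CPM was 2. The script was tested on simulated data. Each library is a separate mouse, so p-values measure the spread between mice. Ratios used log2(TPM + 0.1). The 9 genes, the lists and the pairs were chosen with earlier results of these data known. Besides the 9, the text names up to 4 called genes of each list with the smallest p, or where none passed the 1 or 2 with the smallest p, *Srebf1* and *Mlxipl*, and the 2 genes closest to each of the 9 (average log2 CPM 1 or more). *Slc25a1*, *Hlcs*, *Cab39*, *Cpt1a*, *Pck1*, *Scd1*, *Arntl*, *Saa2* and the markers were named outside that rule, after their values were seen. One gene of the rule is counted in its list and not reported here by name. Positions and shared 31-base sequences are from GENCODE for GRCm38 and promoter windows from RefSeq (all 9 symbols matched).

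Alternatives were DESeq2 1.42.0, limma 3.58.1 (voom, and log2 TPM), other scalings and filters, halved counts, a replicate block, the label series, a clock covariate, single livers left out and an adjusted p under 0.01.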

Additional observations from a re-analysis of the deposited data

Results flagged for a closer look

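A pair of values lay far from the other livers of their group, by the gap to the nearest liver over the range of the group. Among the 4 HSD livers, HSD 2 stood 0.43 above the mean of the other HSD livers in log2 CPM of *Mlycd* (gap over range 0.842). HSD 2 also stood at -0.86 from the mean of the other HSD livers in the log2 ratio of *Acly* to *Acss2* (gap over range 0.876). In all, 28 groups of values were examined and 2 were marked this way, and chance marks about 1 in 20. HSD 2 was the lowest HSD liver for 7 of the 9 genes.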

How the results depend on the processing

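The count of 3 genes higher and 0 lower among the 9 was 0 higher within label series 1 alone and 6 higher with the clock covariate, and 2 to 4 higher and 0 to 0 lower with single livers left out. Over the pathway lists, the 18 higher became 4 within label series 1 alone and 14 to 20 with single livers left out. The 4 lower became 2 with library totals, 0 with the limma fits on log2 TPM, 0 within label series 1 alone, 0 at an adjusted p under 0.01, 9 with chow 1 and chow 3 left out (chosen after seeing the data), and 0 to 7 with single livers left out (7 without chow 1 and 0 without HSD 1). The labels do not say that the same replicate number in both diets pairs mice. Deviations of same-numbered livers correlated weakly (0.0917, 0.0854, -0.109 and 0.0886), which cannot exclude a pairing. Chow 1, chow 2 and chow 4 correlated best with the HSD liver of their own number, but chow 3 with HSD 1 (0.221). HSD 4 correlated best with chow 5 (0.157). With the replicate number as a block the pathway genes lower became 1 while the 9 genes kept a count of 3 higher. Over all genes the block, which drops chow 5, gave 215 higher and 213 lower, against 416 and 391 (645 and 685 with DESeq2, 569 and 254 with library totals, 475 and 101 on log2(TPM + 1), 15 and 19 within label series 1 alone, and as few as 153 and 149 without HSD 1), and not every liver correlated best with its own number. The direction of *Mlycd* turned on log2 TPM (0.068, 0.069 and 0.068 in 3 limma fits) and within label series 1 alone (0.070). The direction of *Aacs* turned on log2 TPM (-0.14, -0.14 and -0.14), with the series as a covariate (-0.28), within series 1 alone (-0.31), without chow 1 and chow 3 (-0.43) and with single livers left out (-0.15 to 0.32). Over all settings and the 9 genes, 193 fold changes kept their direction and 14 did not. *Acacb* was not called by limma on log2 TPM over all genes (adjusted p = 0.0682). From log2 CPM with a prior count of 2, the ratio of *Acly* to *Acss2* differed by 0.59 and that of *Fasn* to *Acaca* by -0.27, and both passed. With single livers left out, the log2 differences were 0.61 to 0.77 for *Acaca* to *Acacb*, 0.46 to 0.76 for *Acly* to *Acss2*, -0.61 to -0.36 for *Fasn* to *Acaca*, 1.72 to 2.26 for *Acaca* to *Mlycd* and 0.92 to 1.30 for *Thrsp* to *Mid1ip1*. Without chow 1 and chow 3, *Acaca* to *Acacb* was 0.73, *Acaca* to *Mlycd* 1.62 and *Thrsp* to *Mid1ip1* 0.56, a design too small to pass (adjusted p = 0.0952 by the exact permutation test). The cause was not tested for any of these. On TPM the median of all genes moved by 0.14 (log2), so fold changes there are to be read relative to it.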
